A study of Mus musculus with 16 samples.

Results

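The gene Myo6, which encodes the heavy chain of myosin VI, was examined with 8 other myosin heavy chain genes found in lymphocytes, Myo1c, Myo1e, Myo1f, Myo1g, Myo5a, Myo9a, Myo9b and Myh9. These 9 genes were taken by symbol from 47643 gene identifiers measured in T cells of the mouse spleen, where 39 identifiers carry the symbol of a myosin heavy chain. Myo6 was chosen because of its difference between genotypes in the CD4 cells described next, so its CD4 values are given as a description with no test. The other 8 genes were chosen by family.

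The study compared TRaGS mice, whose thyroid hormone receptor alpha has lost the ability to bind DNA, with TRaWT littermates. CD4+ T cells were enriched from spleen on magnetic columns and sorted by flow cytometry into CD25+ CD4+ regulatory T cells (Treg) and CD25- CD4+ cells, which the study calls naive (CD4 here). Each of 8 animals gave 1 library of each subset, which makes 4 groups of 4: Treg from TRaGS, Treg from TRaWT, CD4 from TRaGS and CD4 from TRaWT. TRaGS replicates 2, 3 and 4 carry the animal numbers 530201, 534845 and 535574, above every TRaWT animal (529490 to 529518). Genotype and animal number are thus partly aligned, and the part of this in the values was not tested. The receptor is altered in the whole animal as far as the labels say, and neither the age nor the sex of the mice is given there. Libraries were made with a kit that sequences the 3′ ends of polyadenylated RNA, and the design asked how the receptor acts on Treg and on the cells they arise from.

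Myosins are motors that use ATP to move along or pull on actin filaments. Myosin VI is the one known myosin that walks towards the minus end of the filament, and it carries endocytic vesicles, autophagy receptors and Golgi membranes through adaptor proteins that bind its tail. The class I myosins (Myo1c, Myo1e, Myo1f, Myo1g) tie membrane to cortical actin, myosin Va (Myo5a) carries vesicles towards the plus end, the class IX myosins (Myo9a, Myo9b) carry a signalling domain in the tail, and Myh9 is the heavy chain of nonmuscle myosin IIA, which contracts the rear of migrating T cells.

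The 9 genes share the motor head, and the stretch that encodes its ATP-binding loop is shown to place Myo6 in the family. Each line gives 54 coding bases of the reference transcript of the gene (GENCODE annotation, GRCm38), with the 24 bases of the loop in capitals.
Myo6: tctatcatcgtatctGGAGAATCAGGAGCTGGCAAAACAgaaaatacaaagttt
Myo1c: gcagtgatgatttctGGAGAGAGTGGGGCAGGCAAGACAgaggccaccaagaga
Myo1e: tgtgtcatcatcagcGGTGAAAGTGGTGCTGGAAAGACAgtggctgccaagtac
Myo1f: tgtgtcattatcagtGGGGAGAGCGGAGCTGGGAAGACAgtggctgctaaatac
Myo1g: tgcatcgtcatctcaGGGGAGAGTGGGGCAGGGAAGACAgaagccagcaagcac
Myo5a: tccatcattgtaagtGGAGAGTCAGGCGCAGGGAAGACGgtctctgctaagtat
Myo9a: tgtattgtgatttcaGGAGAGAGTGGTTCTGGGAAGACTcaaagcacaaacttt
Myo9b: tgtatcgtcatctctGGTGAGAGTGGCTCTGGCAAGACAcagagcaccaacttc
Myh9: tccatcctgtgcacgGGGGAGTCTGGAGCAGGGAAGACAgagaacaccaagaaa
In Myo6 the stretch lies in exon 6 at chr9:80242209-80242262 on the plus strand. The loop of each other gene matched that of Myo6 at 15 to 18 of its 24 bases. Of the 9 encoded loops, 7 were identical, and those of Myo9a and Myo9b, the class IX genes, differed from them.

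The promoter of Myo6 is shown because the altered receptor is a DNA-binding factor. These are the 250 bases at chr9:80164784-80165033, plus strand (RefSeq, GRCm38.p6), with matches to the GC box (GGGCGG) and the CCAAT box (CCAAT) in capitals, each searched on both strands.
Myo6 promoter: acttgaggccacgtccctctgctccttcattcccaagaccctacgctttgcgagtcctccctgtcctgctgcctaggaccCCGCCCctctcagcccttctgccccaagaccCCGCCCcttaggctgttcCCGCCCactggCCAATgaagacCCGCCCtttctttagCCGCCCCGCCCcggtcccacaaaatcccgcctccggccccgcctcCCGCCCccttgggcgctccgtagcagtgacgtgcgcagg
The window held 7 GC boxes, of which a pair overlap, and 1 CCAAT box. The half-site that nuclear receptors bind (AGGTCA, either strand) had 0 matches in this window. Among 32851 mouse promoters of this length, 14.0% held that half-site, 32.7% a GC box and 33.8% a CCAAT box. All 9 genes had a promoter in the table, 11 in all, and the half-site was found in 1 of the 11, that of Myo1f. A match is a run of letters and not a measured binding site.

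The libraries held 2912038 to 4154027 reads for Treg and 2679119 to 5095278 reads for CD4, and the values below are the authors' normalised read counts. Of these reads, 20.8% to 33.0% in Treg and 21.1% to 41.1% in CD4 fell on 1 gene, Gm42418. Among CD4 libraries TRaGS replicate 2 had the lowest Gm42418 share and the highest mitochondrial share (14.4%). The summed level of 5 Treg markers (Foxp3, Il2ra, Ikzf2, Ctla4, Tnfrsf18) was 6775 to 9397 in the Treg libraries and 620 to 1259 in the CD4 libraries, whose table was scaled separately. The T cell markers Cd3e, Cd3d and Cd4 summed to 3006 to 4888 over all 16 libraries, as the labels say. Counts of 3′ ends cannot check a change in the receptor's DNA-binding domain, so the genotypes rest on the labels. The CD4 library of TRaGS replicate 2 stood apart: it was the deepest of the 8, and of the 9 myosins it held the lowest value of the 8 libraries for 6 and the highest for 2. Without it the CD4 log2 fold changes of these 9 genes kept their sign except for Myo9a.

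In CD4 cells Myo6 was several-fold higher in TRaGS mice. Each of the other 8 myosins missed the threshold, which 0.0575% of all tested genes passed. Myo6 was chosen for its CD4 difference and the other 8 by family, so the contrast follows at least partly from the choice. Myo6 (ENSMUSG00000033577, chromosome 9, 80165031 to 80311729, plus strand) read 1117, 1456, 875 and 1036 normalised counts in the 4 TRaGS libraries, against 139, 119, 187 and 47.6 in the 4 TRaWT libraries. The groups lay far apart: the lowest TRaGS library was above every TRaWT library. The means were 1121 ± 245 in TRaGS and 123 ± 58.0 in TRaWT (SD, n = 4 each), a log2 fold change of 3.31 ± 0.34 (SE) on the log2(count + 1) scale. Without TRaGS replicate 2 the log2 fold change was 3.17. By size of log2 fold change Myo6 ranked 7 of the 10426 genes tested in CD4. The 5 Treg markers summed to 905 to 1259 in the TRaGS libraries of CD4 and 620 to 907 in the TRaWT libraries. The sums overlapped only at the edge of their ranges. Among these markers Ikzf2 alone did not overlap in CD4 (mean 655 in TRaGS and 422 in TRaWT). It was also higher in TRaGS within Treg (mean 5466 against 3751). Foxp3, Ctla4 and Tnfrsf18 overlapped in CD4, and Il2ra had the lower mean in TRaGS (95.0 against 104). The part of these markers in the Myo6 value was not tested. In RNA of a whole sort, more cells that carry the message and more message per cell cannot be told apart.

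**Figure D1:**
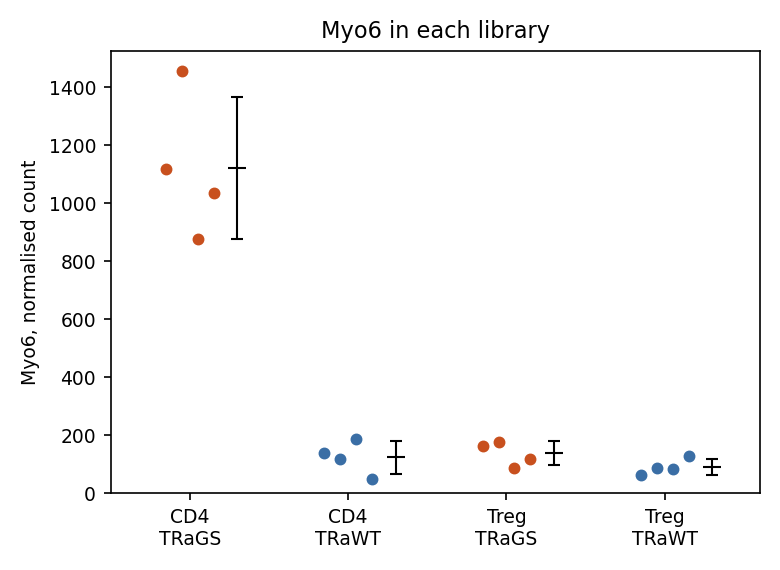
Normalised counts of Myo6 per library, with TRaGS left of TRaWT in each subset. Points are libraries, and the black bar is the mean with its SD. In CD4 the TRaGS libraries sit between 875 and 1456 and the TRaWT libraries between 47.6 and 187, whereas in Treg the groups of 88.1 to 178 and 61.6 to 129 overlap.

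In Treg, which played no part in the choice of the gene, Myo6 did not pass the test. It read 164, 178, 88.1 and 119 normalised counts in TRaGS libraries, against 61.6, 88.5, 82.8 and 129 in TRaWT libraries. The groups overlapped, with TRaGS replicates 3 and 4 inside the TRaWT range. The means were 137 ± 41.3 in TRaGS and 90.5 ± 28.2 in TRaWT (SD, n = 4 each), and the log2 fold change was 0.59 ± 0.31 (SE; 95% interval -0.04 to 1.22). The adjusted p was 0.593 (limma, Benjamini-Hochberg over the 11051 genes tested in Treg), and a two-sided exact permutation test of this single gene gave p = 0.171, where 0.0286 is the smallest p that 70 splits allow. Each library comes from 1 animal. The permutation p uses only the values of this gene in these animals, while the limma p also draws on the variance of the other tested genes.

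Set on 1 scale over all 16 libraries, Myo6 averaged 1237 ± 262 in CD4 of TRaGS mice, 136 ± 64.3 in CD4 of TRaWT mice, 132 ± 39.9 in Treg of TRaGS mice and 87.0 ± 26.6 in Treg of TRaWT mice (SD, n = 4 each). Neighbours in that order overlapped except for the first pair. Within animals, Treg were below CD4 in all 4 TRaGS mice, with a mean log2 difference (Treg minus CD4) of -3.24 ± 0.35 (SE). In TRaWT mice Treg were below CD4 in 3 of 4, with a mean of -0.53 ± 0.35, and the fourth, replicate 4, had 123 in Treg and 52.7 in CD4. The SE is equal in both genotypes because the fit pools it over them. The SD of the log2 difference over the 4 animals was 0.24 in TRaGS and 1.21 in TRaWT. The difference between these subset differences, TRaGS minus TRaWT, was -2.71 ± 0.49. It rests on the CD4 values that chose the gene and has no test here.

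The class I myosins are membrane linkers. None of the 4 passed the test between genotypes in CD4, where 0.0575% of all tested genes did. Myo1c (ENSMUSG00000017774, chromosome 11, 75650504 to 75673910, plus strand), which links vesicles with the glucose transporter to actin in fat cells, read 1.96, 0.707, 6.15 and 4.58 in CD4 of TRaGS mice, against 24.2, 48.5, 9.80 and 7.32 in CD4 of TRaWT mice. All TRaGS libraries were below all TRaWT libraries, the opposite order to Myo6, but they held only 1 to 6 reads each. The log2 fold change was -2.28 ± 1.37 (SE; 95% interval -4.96 to 0.40, adjusted p = 0.947, limma). The exact permutation p was 0.0286, which is unadjusted and the smallest this design gives. Without TRaGS replicate 2 the fold change was -1.90. Groups that do not overlap, in either direction, were found for 3.16% of tested genes in CD4.

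In Treg, Myo1c read 58.1, 49.9, 49.1 and 71.8 in TRaGS libraries, against 39.5, 22.1, 12.8 and 69.3 in TRaWT libraries. The 4 TRaGS values were close together while the TRaWT values spread more than 5-fold, and the groups overlapped (log2 fold change 0.90 ± 0.50, adjusted p = 0.629, limma).

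Myo1e (ENSMUSG00000032220, chromosome 9, 70207350 to 70399766, plus strand) and Myo1f (ENSMUSG00000024300, chromosome 17, 33555707 to 33607764, plus strand) are the long-tailed class I myosins, found at sites of endocytosis and adhesion in blood cells. In Treg, Myo1e read 215, 276, 209 and 142 in TRaGS libraries, against 83.8, 144, 87.5 and 134 in TRaWT libraries. Only the lowest TRaGS library, replicate 4, fell within the TRaWT range. The means were 211 ± 54.7 in TRaGS and 112 ± 31.0 in TRaWT (SD, n = 4 each; log2 fold change 0.90 ± 0.27, SE). The unadjusted p of 0.00172 became 0.119 after adjustment over all genes (limma), so Myo1e missed the threshold.

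Myo1f in Treg read 153, 71.6, 113 and 140 in TRaGS libraries, against 68.2, 63.4, 39.7 and 34.0 in TRaWT libraries. The groups did not overlap, though TRaGS replicate 2 lay just above TRaWT replicate 1. Its log2 fold change was 1.20 ± 0.37 (SE), with an unadjusted p of 0.00202, an adjusted p of 0.135 (limma) and an exact permutation p of 0.0286. Of the tested genes in Treg, 5.07% had groups that do not overlap, in either direction. Myo1e and Myo1f had the lowest p-values of the 9 genes in Treg. In CD4, Myo1e averaged 23.4 ± 17.5 in TRaGS and 11.7 ± 9.54 in TRaWT, and Myo1f 31.9 ± 25.6 and 39.9 ± 22.6 in the same order (SD, n = 4 each). Neither passed the test (adjusted p = 0.959 and 0.975, limma), and without TRaGS replicate 2 their log2 fold changes were 1.32 for Myo1e and -0.13 for Myo1f, against 0.82 and -0.55 with it.

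Sums of some cell type markers also differed between the genotypes in Treg. The B cell markers Cd79a, Cd79b, Ms4a1 and Ighm were summed. The sums were 1282 to 1864 in the TRaGS Treg libraries and 823 to 1136 in the TRaWT Treg libraries, without overlap. Ighm made up most of them, at 1150 to 1789 in TRaGS and 792 to 1079 in TRaWT. Cd79b and Ms4a1 overlapped between genotypes, and Cd79a was at most 1.12 in TRaGS and 1.17 in TRaWT. The naive T cell markers Ccr7 and Lef1 summed to 904 to 1261 in TRaGS and 1268 to 1455 in TRaWT, also without overlap but in the other direction. Taken singly, Ccr7 did not overlap (209 to 279 in TRaGS, 317 to 397 in TRaWT) and Lef1 did (625 to 1017 and 925 to 1084). The plasma cell markers Jchain and Igkc summed to 53.5 to 474 in TRaGS and 17.5 to 76.5 in TRaWT. The 7 markers of macrophages and dendritic cells, cells that also use these myosins, summed to 113 to 201 in the TRaGS Treg libraries and 120 to 173 in the TRaWT Treg libraries, which overlap, and the macrophage marker Adgre1 was at 0 in all 8 libraries. The part of any of these cells in the Myo1e and Myo1f values was not tested.

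Myo1g (ENSMUSG00000020437, chromosome 11, 6506548 to 6520965, minus strand), a class I myosin of blood cells that shapes the T cell surface, read 94.8, 176, 99.4 and 207 in CD4 of TRaGS mice, against 336, 208, 139 and 190 in CD4 of TRaWT mice. The values were intermixed apart from TRaWT replicate 1, and the log2 fold change of -0.60 ± 0.45 did not pass the test (adjusted p = 0.947, limma). In Treg it averaged 262 ± 72.6 in TRaGS and 231 ± 29.0 in TRaWT (SD, n = 4 each; log2 fold change 0.15 ± 0.22, adjusted p = 0.910, limma).

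**Figure D2:**
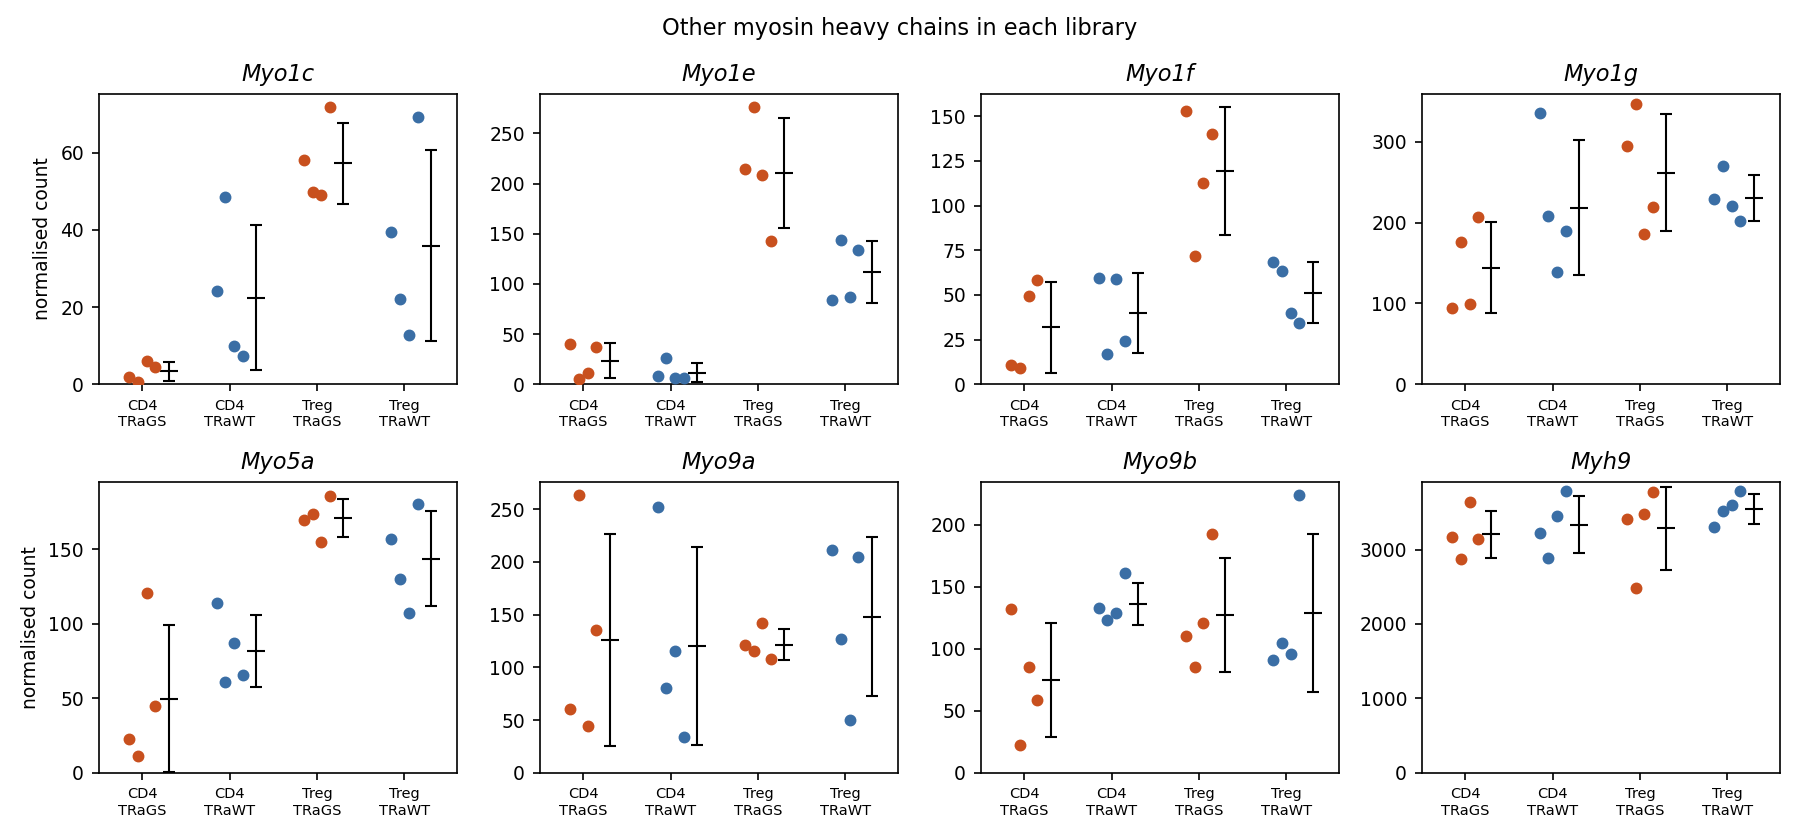
Normalised counts of the myosins other than Myo6 per library, 1 panel a gene, with TRaGS left of TRaWT in each subset. Points are libraries, and the black bar is the mean with its SD. Myo1c separates by genotype in CD4, at 0.707 to 6.15 in TRaGS against 7.32 to 48.5 in TRaWT. Myo1f separates in Treg, at 71.6 to 153 in TRaGS against 34.0 to 68.2 in TRaWT.

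Myo5a (ENSMUSG00000034593, chromosome 9, 75071015 to 75223688, plus strand), the plus-end vesicle carrier, read 22.5, 11.3, 121 and 44.7 in CD4 of TRaGS mice, against 114, 61.0, 87.1 and 65.9 in CD4 of TRaWT mice. Of the TRaGS libraries 3 lay below every TRaWT library and replicate 3 above them all. The log2 fold change of -1.18 ± 0.78 did not pass the test (adjusted p = 0.947, limma), and it was -0.66 without TRaGS replicate 2. In Treg it averaged 171 ± 12.7 in TRaGS and 144 ± 32.0 in TRaWT (SD, n = 4 each; adjusted p = 0.838, limma).

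Neither class IX myosin passed the test between genotypes. Myo9a (ENSMUSG00000039585, chromosome 9, 59750896 to 59928866, plus strand) averaged 126 ± 100 in TRaGS and 120 ± 93.8 in TRaWT in CD4, with single libraries between 34.1 and 264. In Treg it averaged 121 ± 14.6 in TRaGS and 148 ± 75.7 in TRaWT (SD, n = 4 each; adjusted p = 0.993 in CD4 and 0.967 in Treg, limma). Without TRaGS replicate 2 its CD4 log2 fold change was -0.40, against 0.06 with it. An antisense gene covers its 3′ end, and whether strand was used in counting is not given in the sources used here, so reads of the pair may be mixed. Myo9b (ENSMUSG00000004677, chromosome 8, 71272714 to 71360713, plus strand), which in mice is known to act in macrophage and T cell migration, read 132, 22.6, 85.1 and 58.4 in CD4 of TRaGS mice, against 132, 123, 129 and 161 in CD4 of TRaWT mice. The TRaWT values were tight and 3 of 4 TRaGS values lay below them, with a log2 fold change of -1.11 ± 0.59 (adjusted p = 0.947, limma) that was -0.63 without TRaGS replicate 2. In Treg its log2 fold change was 0.02 ± 0.31 (adjusted p = 0.992, limma).

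Myh9 (ENSMUSG00000022443, chromosome 15, 77760587 to 77842175, minus strand), the contractile heavy chain, was the most precisely measured of the 9 genes. It averaged 3202 ± 320 in TRaGS and 3335 ± 382 in TRaWT in CD4, and 3285 ± 556 in TRaGS and 3550 ± 201 in TRaWT in Treg (SD, n = 4 each). The log2 fold changes were -0.06 ± 0.18 in CD4 (95% interval -0.41 to 0.29) and -0.13 ± 0.13 in Treg (95% interval -0.39 to 0.13), neither past the threshold (adjusted p = 0.987 and 0.852, limma).

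Counted over the family, 0 of the 8 genes other than Myo6 passed the test in CD4 (0 with an unadjusted p under 0.05), where 6 of 10426 genes did, all higher in TRaGS, and 5.17% had an unadjusted p under 0.05. With 6 calls among 10426 genes this count says little about the family. Their median log2 fold change in CD4 was -0.58, with 2 positive and 6 negative, against a median of -0.01 over all tested genes. In Treg 0 of the 9 passed (2 with an unadjusted p under 0.05), where 0.959% of 11051 genes passed and 9.12% had an unadjusted p under 0.05. The median log2 fold change of the 8 in Treg was 0.21, against 0.01 over all tested genes. The highest upper bound of a 95% interval in CD4 among the 8 was 3.30, for Myo1e, and the upper bounds of Myo1c, Myo1g, Myo5a, Myo9b and Myh9 were between 0.05 and 0.40.

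**Figure D3:**
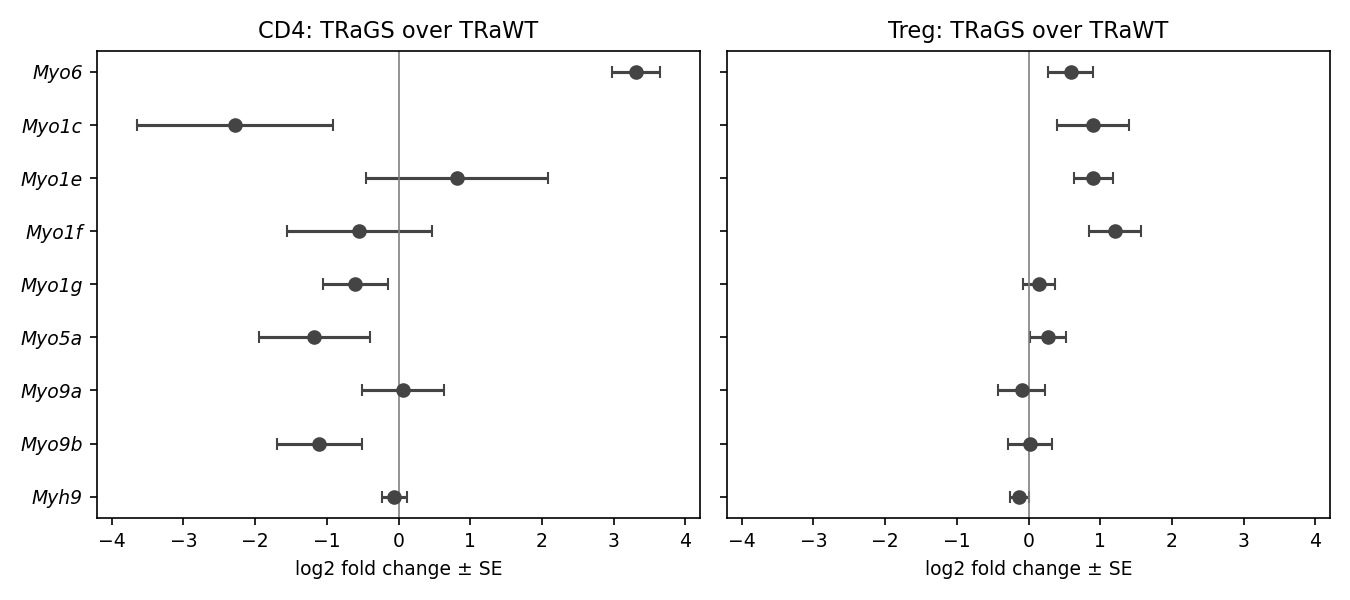
Log2 fold change of each myosin, TRaGS over TRaWT, with its SE as a bar, in CD4 and in Treg. Myo6 stands at 3.31 in CD4 and at 0.59 in Treg; the other 8 lie between -2.28 and 0.82 in CD4 and between -0.13 and 1.20 in Treg, and the bars of Myo1c and Myo1e in CD4 are the widest.

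Between subsets, Myo1c, Myo1e, Myo1f and Myo5a were higher in Treg than in CD4 of TRaGS mice, and Myo1e was also higher in Treg of TRaWT mice. Each animal's Treg value was set against its own CD4 value on the scale common to all 16 libraries. Myo1e was higher in Treg in all 8 animals. It averaged 203 ± 52.7 in Treg and 25.8 ± 19.1 in CD4 of TRaGS mice, and 108 ± 29.5 in Treg and 12.8 ± 10.4 in CD4 of TRaWT mice (SD, n = 4 each). The log2 differences were 3.27 ± 0.69 in TRaGS (adjusted p = 0.000389, limma) and 3.18 ± 0.69 in TRaWT (adjusted p = 0.00106, limma). These SE are pooled over the genotypes, and the SD over the animals was 1.59 in TRaGS and 0.75 in TRaWT.

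In TRaGS mice 4 of the 8 genes other than Myo6 passed the test, all higher in Treg, where 4.4% of 10915 tested genes were called higher. Myo1c averaged 55.3 ± 10.2 in Treg and 3.72 ± 2.78 in CD4 (SD, n = 4 each), a log2 difference of 3.78 ± 0.97 (adjusted p = 0.00545, limma), higher in 4 of 4 animals. Myo5a averaged 165 ± 12.2 in Treg and 55.6 ± 55.6 in CD4, a log2 difference of 2.08 ± 0.49 (adjusted p = 0.00222, limma). Treg values of Myo5a hardly varied, while the CD4 values ran between 12.4 and 136, and replicate 3 had 150 in Treg and 136 in CD4. Myo1f averaged 115 ± 34.9 in Treg and 35.5 ± 28.7 in CD4, a log2 difference of 2.06 ± 0.67 (adjusted p = 0.0403, limma). This call was lost in 7 of 15 alternatives, with an adjusted p of up to 0.247, among them the removal of any 1 of the TRaGS animals. Beside these differences, the 4 B cell markers named above summed to 1282 to 1864 in Treg and 593 to 1018 in CD4 of TRaGS mice. The 2 plasma cell markers summed to 53.5 to 474 in Treg and 6.36 to 56.4 in CD4, in separately scaled tables. Most of the B cell sums was Ighm, with a mean of 1510 in Treg and 681 in CD4, while Cd79a went the other way (0.486 and 13.1). The part of these markers was not tested.

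In TRaWT mice Myo1e was the 1 of these 8 genes that passed, where 1.80% of 10915 tested genes were called higher in Treg. Myo1c averaged 34.5 ± 23.7 in Treg and 24.7 ± 20.7 in CD4, a log2 difference of 0.57 ± 0.97 (adjusted p = 0.870, limma). Myo5a had a log2 difference of 0.62 ± 0.49 (adjusted p = 0.635, limma), higher in Treg in 4 of 4 animals, and Myo1f one of 0.30 ± 0.67 (adjusted p = 0.911, limma), higher in 2 of 4. Myo1g, Myo9a, Myo9b and Myh9 passed in neither genotype, with log2 differences between -0.17 and 0.76 in TRaGS and between -0.37 and 0.24 in TRaWT.

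Whether the subset difference itself depended on genotype was tested directly for the 8 genes other than Myo6, and 0 of 8 passed (2 with an unadjusted p under 0.05), where 0.137% of 10915 genes did and 6.58% had an unadjusted p under 0.05. The difference between genotypes, TRaGS minus TRaWT, was 3.21 ± 1.37 on the log2 scale for Myo1c (adjusted p = 0.662, limma), 1.76 ± 0.95 for Myo1f (adjusted p = 0.785, limma) and 1.46 ± 0.70 for Myo5a (adjusted p = 0.741, limma). It was 0.09 ± 0.97 for Myo1e (adjusted p = 0.994, limma), the gene called in both genotypes. So the calls made for Myo1c, Myo1f and Myo5a in TRaGS mice and missed in TRaWT mice are not shown to differ between the genotypes. The CD4 values of these 3 genes were lowest in TRaGS replicate 2, and without that animal the differences were 2.87 for Myo1c, 1.56 for Myo1f and 0.93 for Myo5a.

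**Figure D4:**
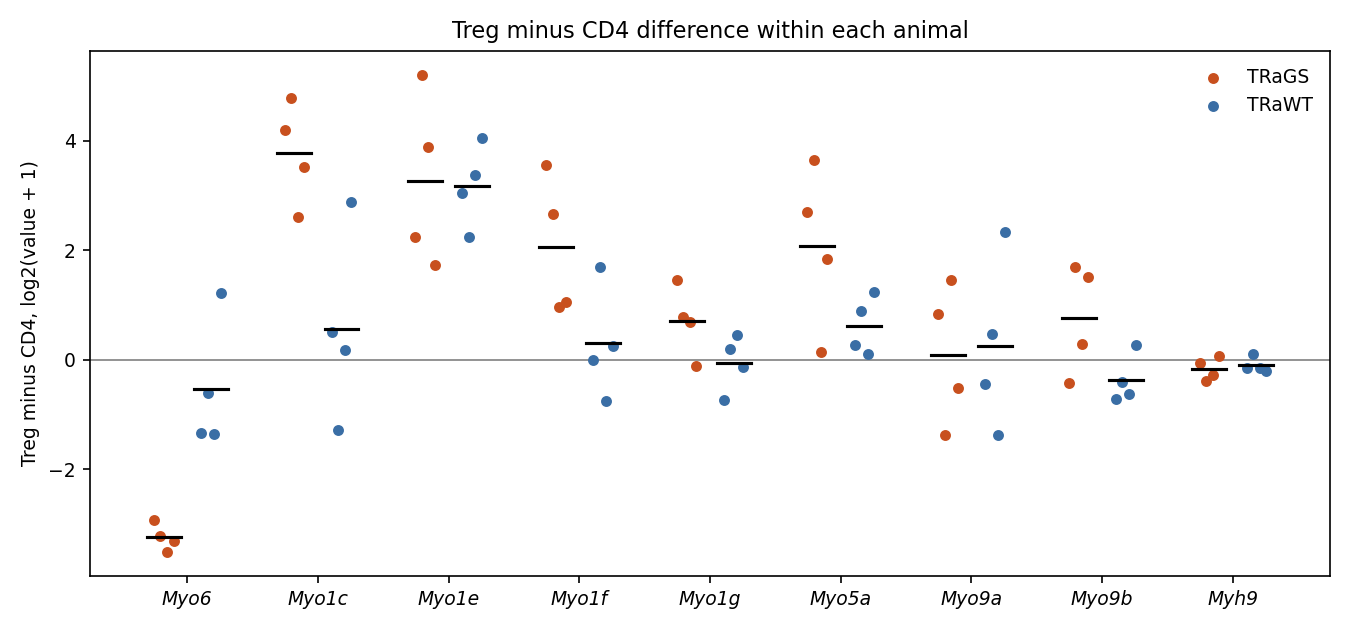
Treg minus CD4 log2 difference of each myosin in every animal, TRaGS beside TRaWT; points are animals and the line is the mean. Myo6 lies at or below -2.93 in the 4 TRaGS animals and between -1.37 and 1.21 in the TRaWT animals, and Myo1e lies at or above 1.73 in all 8.

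Genes that work with the myosins were counted from lists by function. The lists were chosen with earlier results of these data known, so a call within a list is no independent support. Of 30 other myosin heavy chains, which include the muscle myosins, 4 were measured above the filter in CD4 and 6 in Treg, and 0 passed in either. Of all tested genes 0.0575% passed in CD4 and 0.959% in Treg, so 0 calls among so few genes say little. Myo18a, an unconventional myosin of the Golgi and cytoskeleton, averaged 292 ± 74.4 in TRaGS and 409 ± 106 in TRaWT in Treg (log2 fold change -0.49 ± 0.21, adjusted p = 0.456, limma), and its fold change was -0.28 without TRaGS replicate 2. The others tested were Myo10, the filopodial myosin, Myo19, a mitochondrial myosin, and Myo5c in CD4, and Myo10, Myo19, Myo3b, Myo1a and Myo1h in Treg. The list's median log2 fold change was -0.51 in CD4 and -0.39 in Treg, from few and low genes.

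Of 10 adaptors and cargo partners of myosin VI, 7 were tested in each subset and 0 passed, with median log2 fold changes of 0.28 in CD4 and 0.25 in Treg. Beside the 0.0575% of all tested genes that passed in CD4 and the 0.959% in Treg, 0 of 7 says little. Tax1bp1, the autophagy receptor among them, had log2 fold changes of 0.03 ± 0.24 in CD4 and 0.25 ± 0.14 in Treg (adjusted p = 0.992 and 0.616, limma). Calcoco1, a receptor for autophagy of the endoplasmic reticulum, averaged 66.8 ± 8.22 in TRaGS and 42.2 ± 30.8 in TRaWT in Treg (log2 fold change 1.02 ± 0.51, adjusted p = 0.544, limma), and its fold change was 0.41 without TRaWT replicate 3. Dlg1, a scaffold of the immune synapse, had one of -0.50 ± 0.27 in Treg (adjusted p = 0.601, limma), and -0.32 without TRaGS replicate 2. Of 9 myosin light chains and calmodulins, 7 were tested in CD4 and 6 in Treg, and 0 passed, which says as little beside those shares. Calm2, which encodes calmodulin, a light chain of many unconventional myosins, averaged 588 ± 183 in TRaGS and 353 ± 55.8 in TRaWT in CD4 (log2 fold change 0.69 ± 0.31, adjusted p = 0.947, limma).

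Of 11 regulators of myosin II, 9 were tested in each subset. In CD4 0 passed, where 0.0575% of all tested genes did, and in Treg 1 rose, where 0.733% were called higher. That gene was S100a4, a calcium-binding protein that disassembles myosin IIA filaments. It averaged 717 ± 45.8 in TRaGS and 216 ± 37.2 in TRaWT in Treg (SD, n = 4 each), without overlap. Its log2 fold change was 1.75 ± 0.18 (adjusted p = 4.83e-08, limma). The call was lost in 1 of 18 alternatives, the fit with no variance trend (adjusted p = 0.131). In CD4 it averaged 290 ± 155 in TRaGS and 111 ± 57.1 in TRaWT (log2 fold change 1.37 ± 0.46, adjusted p = 0.771, limma). The median of the list was 0.18 in CD4 and 0.11 in Treg.

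Of 25 genes of cortical actin and its regulators, 24 were tested in CD4 and 25 in Treg, with median log2 fold changes of 0.06 and 0.09. None passed in CD4, where 0.0575% of all tested genes did, and 1, Vim, rose in Treg, where 0.733% were called higher. Vim encodes the intermediate filament vimentin and not an actin protein. In Treg it averaged 1478 ± 275 in TRaGS and 992 ± 103 in TRaWT (SD, n = 4 each), with a log2 fold change of 0.56 ± 0.15 (adjusted p = 0.0417, limma). That call was lost in 9 of 18 alternatives, with an adjusted p of up to 0.558, among them the removal of TRaGS replicate 1, 2 or 3 or TRaWT replicate 1, 2 or 4. In CD4 it averaged 540 ± 209 in TRaGS and 895 ± 173 in TRaWT (log2 fold change -0.78 ± 0.27, adjusted p = 0.788, limma), and without TRaGS replicate 2 the fold change was -1.02, with an adjusted p of 0.0400. Tmsb4x, the thymosin that holds actin monomers, had a log2 fold change of 0.45 ± 0.14 (SE) in CD4 (adjusted p = 0.611, limma). The CD4 fit gave every gene the variance of the trend, so this SE does not hold the gene's own spread. The fold change was -0.08 without TRaGS replicate 2, which read 40956 where the other 7 CD4 libraries read between 5885 and 17271. Tmsb4x passed the test in 3 of 18 alternatives, all with that library kept. They were the fits without TRaGS replicate 3, without TRaGS replicate 4, and with TRaGS replicates 1 and 2 alone.

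**Figure D5:**
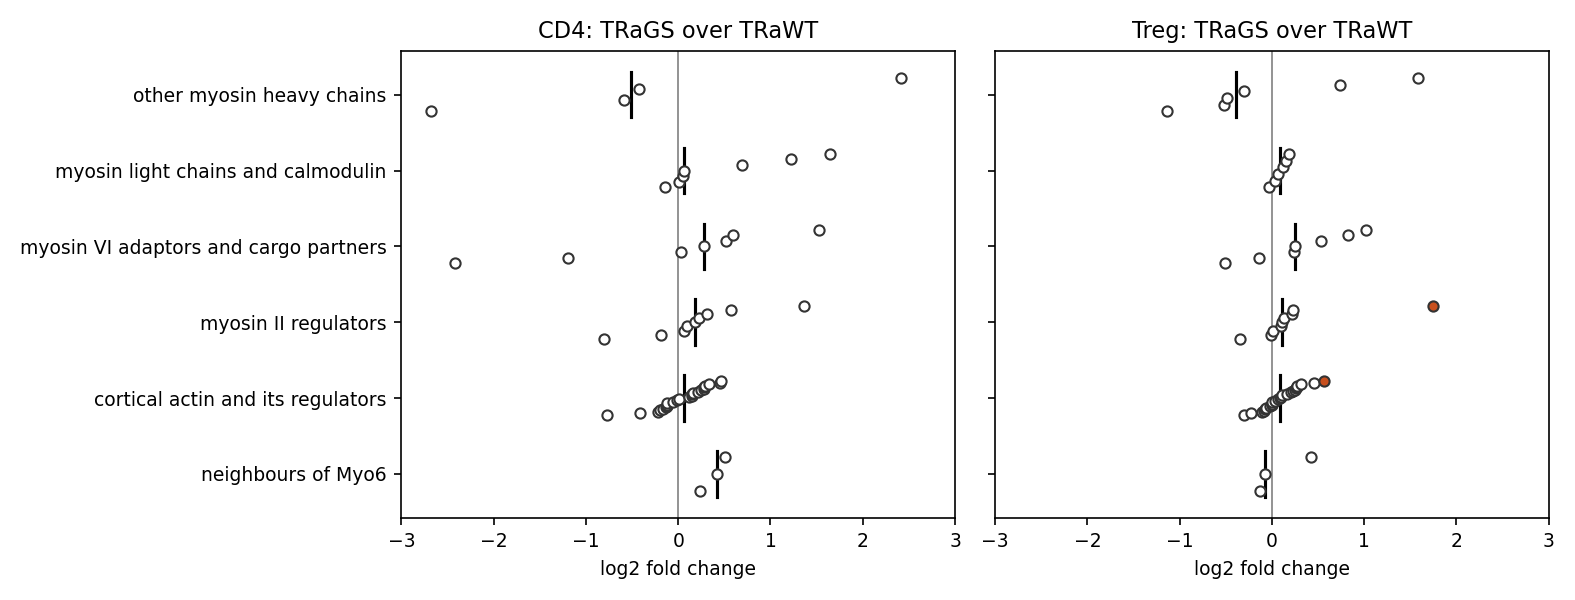
Log2 fold change, TRaGS over TRaWT, of each tested gene of the lists in CD4 and Treg; each point is a gene, orange points passed the test and the vertical line is the list's median. S100a4 at 1.75 and Vim at 0.56 in Treg are the 2 genes that passed.

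The genes around Myo6 were also read. Of 19 genes within 1000000 bases of it, 3 passed the filter, and 0 passed the test in either subset. Since 0.0575% of all tested genes passed in CD4 and 0.959% in Treg, 0 of 3 says little. In CD4 the log2 fold changes were 0.51 ± 0.33 for Tmem30a, a flippase subunit, 0.42 ± 0.36 for Cox7a2, a subunit of cytochrome oxidase, and 0.24 ± 0.25 for Senp6, a SUMO protease (adjusted p = 0.947 for each, limma). Without TRaGS replicate 2 they were 0.28, 0.18 and 0.15 in the same order. In Treg they were 0.43 ± 0.21, -0.13 ± 0.26 and -0.08 ± 0.15 (adjusted p = 0.521, 0.943 and 0.937, limma).

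The genes whose values ran most like those of Myo6 over the 8 CD4 libraries, by Pearson's r of log2(count + 1) among 9427 genes, were Bcl2 (r = 0.96), Kif2a (r = 0.94), Hsd17b11 (r = 0.93), mt-Nd5 (r = 0.93) and Dut (r = 0.92). Since Myo6 falls into 2 separate groups in CD4, such an r mostly measures a shared split by genotype and is a measure of likeness only. Bcl2, the survival factor, averaged 2481 ± 224 in TRaGS and 1212 ± 223 in TRaWT in CD4 (SD, n = 4 each), without overlap. Kif2a, a kinesin that takes microtubules apart, averaged 532 ± 48.5 in TRaGS and 338 ± 37.3 in TRaWT. Among the myosins, r with Myo6 in CD4 was lowest for Myo1c at -0.73 and Myo9b at -0.70, and highest for Myo1e at 0.37.

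Over the 8 Treg libraries the nearest of 9804 genes were Fbxo31 (r = 0.94), Arhgap18 (r = 0.93), Chrna9 (r = 0.93), Ccdc88a (r = 0.92) and Arhgdia (r = 0.91). Ccdc88a encodes the actin-binding protein girdin. Arhgap18 averaged 142 ± 47.0 in TRaGS and 111 ± 37.0 in TRaWT in Treg, with ranges that overlap, and Chrna9 ran between 0 and 31.8 in TRaGS and between 0 and 4.70 in TRaWT. Of the myosins, Myo1e had the highest r with Myo6 in Treg, at 0.78, and Myh9 the lowest, at -0.40. The 8 points of each r are the libraries of 1 subset, which differ in depth.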

How the data were processed

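Per the labels' protocols, RNA was purified with RNeasy columns and libraries were made with the QuantSeq 3′ mRNA FWD kit. The deposited values are read counts that the authors divided by a size factor per library, a signal scale, in a table for each subset; the build is GRCm38 per the submitters' processing notes, and the sources used here do not give the aligner or counter. Whole reads were recovered from the steps between low values (100% of values whole within 0.001). The 9 genes and the lists were chosen with earlier results of these data known.

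Genotypes were compared with limma 3.58.1 (R 4.3.3) on log2(normalised count + 1), with a variance trend, genes with a mean of at least 5 and Benjamini-Hochberg adjustment over all tested genes (threshold 0.05). In CD4 the fit gave every gene the variance of the trend. Subsets were compared within animals, as the Treg value less the CD4 value on the log2 scale, from recovered reads divided by size factors over all 16 libraries; libraries of an animal were matched by the animal number in the labels. The SE of each subset difference is that of the fit, pooled over both genotypes, and not the spread of a genotype's own animals. Single genes were also tested by an exact permutation over samples. On recovered reads, edgeR 4.0.16 called 3 genes in CD4 and 90 in Treg, and DESeq2 1.42.0 called 10 and 138. The fits were also run on simulated data, and the outcome is not reported here. Named genes were the 9 myosins, each list's called genes and up to 3 others of lowest p, every other myosin heavy chain measured, and the 5 genes nearest to Myo6 per subset. No library was left out. Of the marker lists, B cell and naive T cell sums cover only the genes named; other members are not reported here.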

Additional observations from a re-analysis of the deposited data

Results flagged for a closer look

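Among 36 groups of 4 libraries (9 myosins in 4 groups), 2 held a library far from the others by Dixon's test, near the 1 in 20 that chance gives. Myo1e in CD4 of TRaWT mice read 25.9 in replicate 2, against 6.10 to 8.07 in the other 3 libraries. Myo9b in Treg of TRaWT mice read 224 in replicate 4, against 91.2 to 105 in the other 3.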

How the results depend on the processing

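Myo6 in CD4 had a log2 fold change of 2.91 to 3.56 over 18 alternatives. Its CD4 values chose it and its groups there do not overlap, so the kept direction adds no support. In Treg Myo6 stayed short of the threshold in all 18 (0.42 to 0.96, adjusted p 0.494 to 0.827, limma, edgeR or DESeq2). The counts of called genes moved more, and the cause was not tested. With no filter they were 1 in CD4, 62 in Treg, 393 and 143 for Treg against CD4 in TRaGS and TRaWT, and 1 for the difference. In CD4 upper-quartile scaling gave 2, edgeR 3 and DESeq2 10. With no variance trend 0 passed in CD4 and in Treg, and TRaGS replicates 1 and 2 alone gave 27 and 42. Leaving out 1 library or animal gave 3 to 9 in CD4 and 56 to 108 in Treg (56 without TRaGS replicate 3, 61 without replicate 4). For Treg against CD4 it gave 533 to 878 in TRaGS, 171 to 592 in TRaWT and 9 to 26 for the difference.

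The replicate numbers do not pair animals of the genotypes (correlations of same-numbered deviations -0.02 to 0.05). The replicate block gave 4 called genes in CD4 and 112 in Treg, and for Myo6 in Treg an adjusted p of 0.587 (limma). Treg and CD4 of an animal were matched, and a fit that left out this matching gave 746 in TRaGS, 237 in TRaWT and 3 for the difference.

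Sign changes were confined, among the results tried, to values that did not pass. In CD4, Myo9a was -0.0604 under upper-quartile scaling and Myo10 was 0.14 under edgeR and 0.14 under DESeq2. In Treg, Myo9b was -0.0127 under edgeR, -0.0196 under DESeq2 and -0.30 with TRaGS replicates 1 and 2 alone, which also gave -0.0220 for Myl12b. Leaving out 1 library gave, in CD4, -0.42 to 0.53 for Myo9a, -0.12 to 0.00655 for Myh9, -0.0787 to 0.85 for Tmsb4x, -1.13 to 0.16 for Myo18a and -1.01 to 0.72 for Myo10. In Treg it gave -0.54 to 0.14 for Myo9a, -0.20 to 0.32 for Myo9b, -0.20 to 0.00086 for Myh9, -0.0535 to 0.26 for Myl12b, -1.12 to 0.0452 for Myo19, -1.41 to 0.71 for Myo1h and -0.28 to 0.0879 for Cox7a2. For Treg minus CD4 it gave -0.37 to 0.58 for Myo9a in TRaGS, and in TRaWT -0.21 to 1.18 for Myo1c, -0.17 to 0.64 for Myo1f, -0.23 to 0.17 for Myo1g and -0.46 to 0.78 for Myo9a. The difference between genotypes ran -0.56 to 0.59 for Myo1e, -0.70 to 0.55 for Myo9a and -0.15 to 0.0110 for Myh9. The likeness to Myo6 was tried, after seeing the data, with other pseudocounts and without each library, and r of the 10 named genes stayed between 0.864 and 0.996.

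In CD4, Myo1c was measured with 1 to 58 reads a library, Myo1e with 5 to 41 and Myo1f with 11 to 74.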
